A study of Mus musculus with 21 samples.

Results

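The microRNA miR-126 was followed through the left ventricle of pressure-overloaded mice by the counts of its 4 mature arms, miR-126a-3p, miR-126a-5p, miR-126b-3p and miR-126b-5p. The arms were taken by name, and make up 4 of the 1903 named rows of the count table, of which 832 have a count in any library. All 4 passed the filter on low counts, which left 561 microRNAs for testing. The series holds small RNA libraries from 21 mice of the C57BL/6J strain, each made from the myocardium of 1 left ventricle. Transverse aortic constriction (TAC) narrows the aorta and loads the left ventricle with pressure. The groups were sham surgery without a drug (Sham, 5 mice), TAC without a drug (TAC, 5 mice), TAC with sildenafil, an inhibitor of phosphodiesterase 5A (TAC+PDE5A-I, 5 mice), and TAC with PF-04449613, an inhibitor of phosphodiesterase 9A (TAC+PDE9A-I, 6 mice). Each drug was given for 4 weeks from 1 week after surgery. The sources used here give neither the doses nor the age or sex of the mice, and no sham mice with a drug are among the groups.

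miR-126 is the best known microRNA of endothelial cells, the cells that line blood vessels. It is made from an intron of Egfl7, the gene of a secreted endothelial protein, and its 3p arm is known to repress Spred1 and Pik3r2, 2 inhibitors of signalling downstream of vascular endothelial growth factor. The 5p arm is also loaded and is known for its repression of Dlk1 in endothelium. In a whole piece of ventricle, fewer endothelial cells and less miR-126 per cell cannot be told apart.

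In GRCm38 the Mir126a hairpin lies on the plus strand of chromosome 2, from 26591357 to 26591429. GENCODE M21 places Egfl7 on the same strand, from 26580014 to 26593120, and the hairpin lies in an intron of each of the 7 protein-coding Egfl7 transcripts that span it (of 12 in all). In 1 further transcript, which keeps the intron, it is exonic. The Mir126b hairpin is annotated on the minus strand of the same locus, from 26591363 to 26591420, so that the whole of its 58 bases is the reverse complement of bases 7 to 64 of the Mir126a hairpin. The sequences below are from RefSeq (GRCm38.p6), 5′ to 3′, and show this overlap. Whether it has a part in the counts of the a and b arms was not tested. Capitals mark miR-126a-3p in the first hairpin and miR-126b-3p in the second.
Mir126a hairpin: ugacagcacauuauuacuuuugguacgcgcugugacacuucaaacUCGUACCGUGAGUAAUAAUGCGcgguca
Mir126b hairpin: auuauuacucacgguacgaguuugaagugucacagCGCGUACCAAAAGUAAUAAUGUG
In the 3 mature arms below, capitals mark the seed, bases 2 to 8, which pairs with target RNAs.
miR-126a-3p: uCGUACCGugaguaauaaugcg
miR-126b-3p: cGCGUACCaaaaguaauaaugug
miR-126b-5p: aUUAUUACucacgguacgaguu
None of the 3 seeds occurred in another of the 1679 mature mouse microRNAs of the RefSeq table. The reverse complement of miR-126b-3p, cacauuauuacuuuugguacgcg, is bases 7 to 29 of the Mir126a hairpin, on its 5′ arm. The reverse complement of miR-126b-5p covers bases 43 to 64, of which 19 belong to miR-126a-3p.

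The libraries were not equally deep. Total microRNA counts ran from 3766517 to 7490436 in Sham, from 5373960 to 8497792 in TAC and from 1205417 to 3969716 in TAC+PDE5A-I. TAC+PDE5A-I 3, 4 and 5 and TAC+PDE9A-I 5 each held less than 2000000 counts. Where a mature sequence was in the RefSeq table, the GC content weighted by counts was 44.6% to 45.14% in the Sham and TAC libraries, 46.02% and 46.03% in TAC+PDE5A-I 1 and 2, 47.7% to 48.57% in TAC+PDE5A-I 3 to 5 and 47.17% in TAC+PDE9A-I 5. The main results on sildenafil are also given without the 4 shallow libraries. TAC+PDE5A-I 1 and 2, which then remain, held 3149080 and 3969716 counts and had a higher GC content than every other library that remains. For miR-126a-5p and the balance of the 2 arms, the part of the sildenafil difference that goes with depth or base composition was not tested.

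The levels of both arms of miR-126a were close in Sham and TAC, and the 5p arm was far lower in every sildenafil library. Levels are CPM (counts relative to library size, scaled by TMM, the trimmed mean of M values), given as mean ± SD. The 5p arm measured 28783 ± 4880 CPM in Sham (n = 5), where it was the 10th most abundant microRNA, and the 3p arm measured 9463 ± 1702 CPM (n = 5), the 18th. In all Sham and TAC libraries the 5p arm had the higher count. Counts of different arms also depend on how well each is ligated and amplified.

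**Figure D1:**
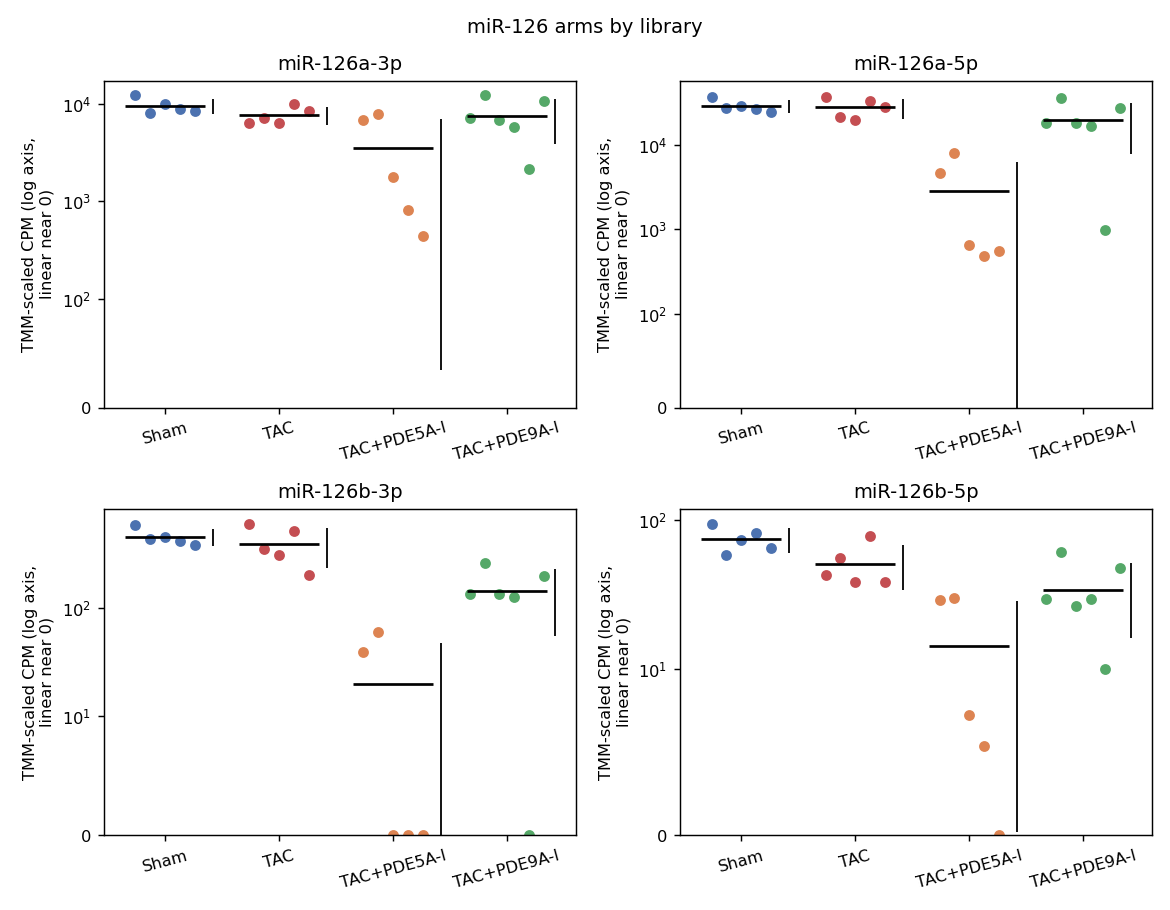
Each panel shows 1 arm: points are single libraries, in replicate order within a group, horizontal lines are group means and vertical lines run from the mean minus 1 SD (not below 0) to the mean plus 1 SD, in TMM-scaled CPM on a log axis that is linear near 0. The 2 deeper sildenafil libraries lie among the TAC libraries for miR-126a-3p and below them for miR-126a-5p, where they measured 4570 and 7940 CPM.

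The 3p arm of miR-126a, the arm that represses Spred1 and Pik3r2, measured 12200, 8040, 9850, 8890 and 8300 CPM in Sham 1 to 5. In TAC 1 to 5 it measured 6320, 7140, 6370, 9910 and 8340 CPM. The TAC values overlapped those of Sham, and their mean, 7615 ± 1520 CPM (n = 5), did not pass against it in the edgeR test (log2 fold change -0.31 ± 0.57, SE; 95% interval -1.50 to 0.87; adjusted p = 0.973). Under sildenafil the 5 libraries fell into unlike levels: 6740 and 7740 CPM in TAC+PDE5A-I 1 and 2, and 1760, 815 and 446 CPM in replicates 3, 4 and 5. The first 2 lay inside the range of TAC and the other 3 below every TAC library. The group mean of 3501 ± 3466 CPM (n = 5) did not pass against TAC (log2 -1.12 ± 0.57, interval -2.32 to 0.08, adjusted p = 0.116 in edgeR). Without the 4 shallow libraries the difference was -0.06 (adjusted p = 0.926), and with a correction for the GC content of the sequences it was -0.50 (adjusted p = 0.327). Against Sham it was -1.43 ± 0.58 and did not pass (adjusted p = 0.0518 in edgeR, where 42.6% of microRNAs were called and 23.5% lower). It was -0.39 without the shallow libraries (adjusted p = 0.359) and -0.89 with the GC correction (adjusted p = 0.0705).

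With PF-04449613 the 3p arm ran from 2160 to 12300 CPM with a median of 6969 (n = 6). The lowest value was that of the shallow TAC+PDE9A-I 5, and the other 5 libraries lay between 5710 and 12300 CPM, which takes in all 5 TAC values. The log2 fold change against TAC was -0.03 ± 0.54 (interval -1.16 to 1.102, adjusted p = 0.997), and 0.18 without the shallow libraries. Against Sham it was -0.34 ± 0.54 (adjusted p = 0.963). The order of the group means was Sham, TAC, TAC+PDE9A-I, TAC+PDE5A-I, and no neighbours in this order passed the test.

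The 5p arm of miR-126a, which is known for its repression of Dlk1, measured 37000, 27300, 29000, 26200 and 24400 CPM in Sham 1 to 5 and 36700, 21400, 19400, 33000 and 27800 CPM in TAC 1 to 5. The 2 groups overlapped, and TAC (27645 ± 7359 CPM, n = 5) did not pass against Sham (log2 -0.06 ± 0.71, interval -1.55 to 1.43, adjusted p = 0.986 in edgeR). In TAC+PDE5A-I 1 to 5 it measured 4570, 7940, 657, 475 and 553 CPM. All 5 values lay below the lowest TAC library, those of the 2 deeper libraries included. How many other microRNAs had separate ranges was not counted. The arm fell 9.74-fold by the ratio of means, to 2839 ± 3338 CPM (n = 5), a log2 fold change of -3.28 ± 0.78 (adjusted p = 0.00323). It also fell against Sham (-3.34 ± 0.78, adjusted p = 0.00286), where 42.6% of microRNAs were called and 23.5% lower. This difference was -2.20 without the shallow libraries (adjusted p = 0.000286), where 13% of 660 microRNAs were called lower. Without the 4 shallow libraries the fall against TAC was smaller by more than 1 log2 unit and passed: -2.12 on the log2 scale (adjusted p = 0.000443), with 2 sildenafil libraries left. In that setting 12.3% of 660 microRNAs were called lower against TAC. Under sildenafil, 46.3% of all tested microRNAs were called against TAC and 24.8% were called lower, so a lower call was frequent in this comparison.

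With PF-04449613 the 5p arm ran from 981 to 35400 CPM with a median of 18018 (n = 6). The lowest value was again TAC+PDE9A-I 5, and the other 5 libraries, from 16800 to 35400 CPM, overlapped TAC. The difference from TAC was -0.51 ± 0.68 on the log2 scale (interval -1.94 to 0.91, adjusted p = 0.991), and from Sham -0.57 ± 0.68 (adjusted p = 0.949; 1.96% of microRNAs were called). No microRNA was called by edgeR between TAC+PDE9A-I and TAC (0% of 561), where 16 had an unadjusted p under 0.05 and DESeq2 called 1. In TAC against Sham, 2.32% of all microRNAs were called, 2.14% higher. The 2 drug groups share the TAC controls and can be compared directly. The 5p arm was lower under sildenafil than under PF-04449613 (log2 -2.77 ± 0.75, adjusted p = 0.0132, where 34.8% of microRNAs were called and 19.6% lower). The difference was -1.89 without the shallow libraries (adjusted p = 0.00111), where 12.7% of 660 microRNAs were called lower. In a fit of these 2 groups alone it did not pass (-2.84, adjusted p = 0.105). For the 3p arm this difference was -1.09 ± 0.55 (interval -2.25 to 0.07, adjusted p = 0.125), and -0.24 without the shallow libraries (adjusted p = 0.568). By mean level of the 5p arm the order was Sham, TAC, TAC+PDE9A-I, TAC+PDE5A-I, and of these neighbours only the last pair differed in the fit of all groups.

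**Figure D2:**
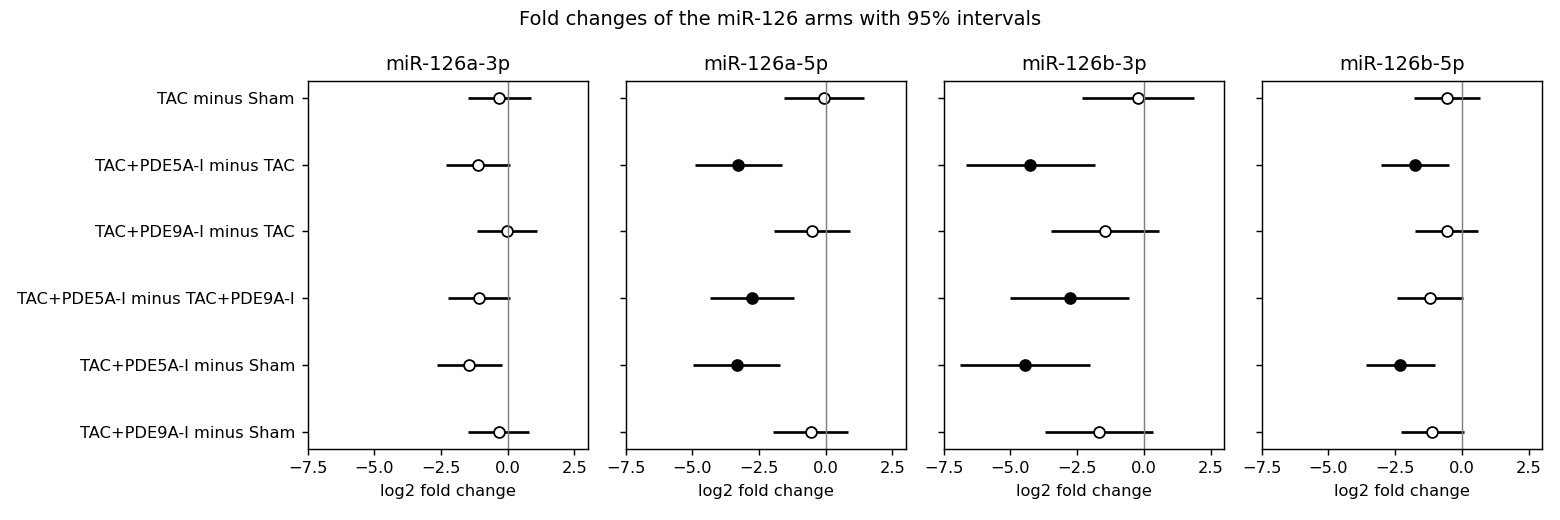
Points are edgeR log2 fold changes of each arm (first group minus second) and lines their 95% intervals, and filled points passed an adjusted p of 0.05. Every filled point belongs to a comparison with sildenafil, and miR-126a-3p has none.

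The 2 arms of miR-126a together took 3.8%, 3.27%, 3.29%, 3.45% and 3.34% of all microRNA counts in Sham 1 to 5 and 3.87%, 2.96%, 3.02%, 4.13% and 3.57% in TAC 1 to 5. This share needs no scaling factor, and its difference between the 2 groups did not pass (two-sided exact permutation p = 0.746; Sham mean 3.43% ± 0.217, TAC mean 3.51% ± 0.517, n = 5 each). In TAC+PDE5A-I 1 to 5 it was 1.2%, 1.77%, 0.204%, 0.138% and 0.111%, below every Sham and TAC library. Whether the shares of other microRNAs were also separate was not counted. With the 2 deeper sildenafil libraries alone the difference from TAC was -2.03 percentage points, too few samples for the exact test to pass. With all 5 it was -2.83 percentage points (exact permutation p = 0.00794, the smallest that 5 against 5 mice allows; 0.0238 adjusted over 6 comparisons). With PF-04449613 the share ran from 0.325% to 4.28% with a median of 2.8%, and it did not pass against TAC (exact permutation p = 0.247, adjusted p = 0.353). Between the drugs the difference was -2.06 percentage points (exact permutation p = 0.013, adjusted p = 0.026).

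The balance of the 2 arms changed under sildenafil, from an excess of the 5p arm to about equal counts or an excess of the 3p arm. The ratio of the 3p to the 5p count was 0.331, 0.294, 0.34, 0.339 and 0.34 in Sham 1 to 5, and 0.172, 0.334, 0.328, 0.3 and 0.301 in TAC 1 to 5. Apart from TAC 1, in which the 3p arm was low against the 5p arm, these 9 libraries lay within 0.294 to 0.34. In TAC+PDE5A-I 1 to 5 the ratio was 1.47, 0.975, 2.68, 1.71 and 0.807. Each of these lay above every Sham and TAC library. The number of other hairpins with separate ranges under sildenafil was not counted. In TAC+PDE9A-I the ratio was 0.34 to 0.395 in 5 libraries and 2.2 in the shallow replicate 5.

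On the log2 scale the ratio was 2.32 ± 0.44 higher in TAC+PDE5A-I than in TAC (limma, SE; 95% interval 1.40 to 3.25; adjusted p = 0.00249 over 161 hairpins with both arms tested). The two-sided exact permutation test over the mice gave p = 0.00794 (0.0159 adjusted over 6 comparisons, n = 5 each). Without the shallow libraries the difference was 2.10 (limma adjusted p = 1.74e-05), so it was nearly as large in the 2 deeper sildenafil libraries. How many hairpins were called without the shallow libraries was not counted, in this or the other comparisons. Arm ratios of other hairpins moved as well: 41% of the 161 hairpins were called in this comparison, 35 (21.7%) with a higher and 31 (19.3%) with a lower ratio of 3p to 5p. The change of miR-126a was the 34th largest by size. Across the 136 hairpins with both sequences, the change in log2 ratio went with the difference in GC content of the arms (Spearman rho = 0.518, Pearson r = 0.55; hairpins share the libraries and are not independent). In TAC against Sham the same rank correlation was -0.133. The 3p arm of miR-126a has a GC content of 45.5%, and the stretch of its 5′ arm printed above as the complement of miR-126b-3p has 39.1%. What part of the arm change goes with library depth or base composition was not tested.

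**Figure D3:**
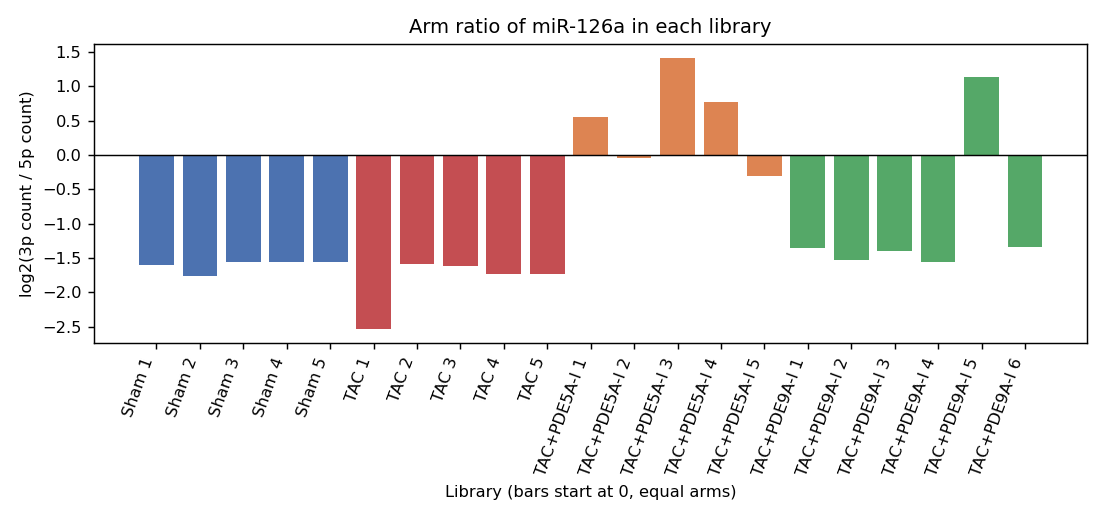
Bars show log2 of the 3p count over the 5p count of miR-126a in each library, from 0 (equal counts), coloured by group. The Sham and TAC bars all point down, to -2.54 in TAC 1, while the sildenafil bars lie between -0.31 and 1.42 and TAC+PDE9A-I 5 stands at 1.14.

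Between TAC+PDE9A-I and TAC the log2 ratio differed by 0.83 (exact permutation p = 0.00433, 0.0159 adjusted over 6 comparisons). The lowest TAC+PDE9A-I ratio, 0.34, lay just above the highest TAC ratio, 0.334. How many of the other hairpins also had separate ranges was not counted. In limma the difference was 0.83 ± 0.42 (interval -0.05 to 1.72) and did not pass over the 161 hairpins (adjusted p = 0.858; 0% were called by limma, with 2 at an unadjusted p under 0.05). Leaving out TAC+PDE9A-I 5 reduced the difference to 0.41 (exact permutation, adjusted p = 0.0119), and leaving out TAC 1 to 0.66 (adjusted p = 0.0238). Against Sham it was 0.60 (exact permutation p = 0.013, adjusted p = 0.0195), which did not pass in limma (0.60 ± 0.42, interval -0.28 to 1.49, adjusted p = 0.762; 1.24% of hairpins were called). It was 0.17 without TAC+PDE9A-I 5 (adjusted p = 0.0286), which became an adjusted p of 0.0714 when the shallow sildenafil libraries were left out as well. TAC and Sham differed by -0.23 (exact permutation p = 0.159; limma adjusted p = 0.986), a difference of -0.058 without TAC 1. Sildenafil differed from Sham by 2.09 ± 0.44 (limma adjusted p = 0.0024; 37.9% of hairpins were called, 19.9% higher), and by 1.87 without the shallow libraries (limma adjusted p = 5.34e-05). The drugs differed by 1.49 (limma adjusted p = 0.019, with 27.3% of hairpins called, 16.8% higher and 10.6% lower; exact permutation p = 0.0346, adjusted p = 0.0416). With 1 library left out, the difference ran from 1.25 to 1.92, and of 21 such analyses the limma call was lost in 2 and the exact permutation call in 8. Without the 4 shallow libraries it was 1.69 (limma adjusted p = 0.000155).

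**Figure D4:**
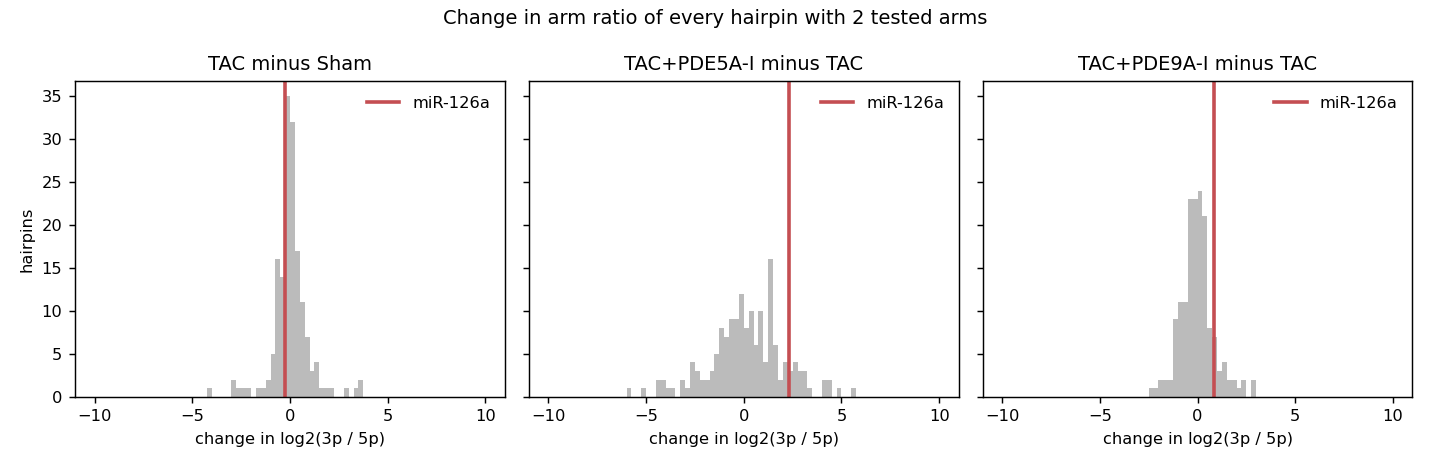
Histograms give the change in log2(3p/5p) of 161 hairpins in 3 comparisons, as numbers of hairpins per 0.25 log2 units, and the red line marks miR-126a. Under sildenafil the whole distribution is wider, and 17 hairpins had a larger positive change than the 2.32 of miR-126a.

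The minus-strand arms of miR-126b were counted at a small share of the arm that lies opposite, and the share of miR-126b-3p was nearly the same in 9 libraries and lower in the others. miR-126b-3p had 3415, 2336, 2236, 1569 and 1983 counts in Sham 1 to 5, and the opposite arm miR-126a-5p had 97159 to 213668. Of their summed counts miR-126b-3p took 1.57%, 1.58%, 1.56%, 1.59% and 1.55%. In TAC 1 to 4 it took 1.61%, 1.61%, 1.59% and 1.54%. The 9 libraries had a mean share of 1.58% ± 0.0249 (SD), a coefficient of variation of 1.58%, although the level of miR-126a-5p itself varied by 17% (coefficient of variation, n = 5) in Sham.

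In TAC 5 the share was 0.722% (95% Wilson interval 0.681% to 0.767%, counting error only), less than the lowest bound of any other TAC library. In TAC+PDE9A-I 1, 2, 3, 4 and 6 it was 0.735%, 0.738%, 0.746%, 0.742% and 0.739%, and in TAC+PDE5A-I 1 and 2 it was 0.843% (0.711% to 1.0%) and 0.749%. Among the 17 deeper libraries the share thus took 2 levels, one in Sham 1 to 5 and TAC 1 to 4, which are the first 9 columns of the deposited table, and a lower one in the 8 later columns. The labels name no batch that matches this step, which was seen in these counts, and TAC 5 carries the same label as TAC 1 to 4. TAC+PDE5A-I 3, 4 and 5 and TAC+PDE9A-I 5 had no count of miR-126b-3p, which allows a share of up to 0.331%, 0.426%, 0.405% and 0.191%. These limits lie below both levels. They are too low if a 0 can stand for 1 read, as no count in these data equals 1. At the mean share of the 8 deeper later libraries, 0.752%, they would be expected to hold 6.87, 5.34, 5.61 and 11.9 counts.

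**Figure D5:**
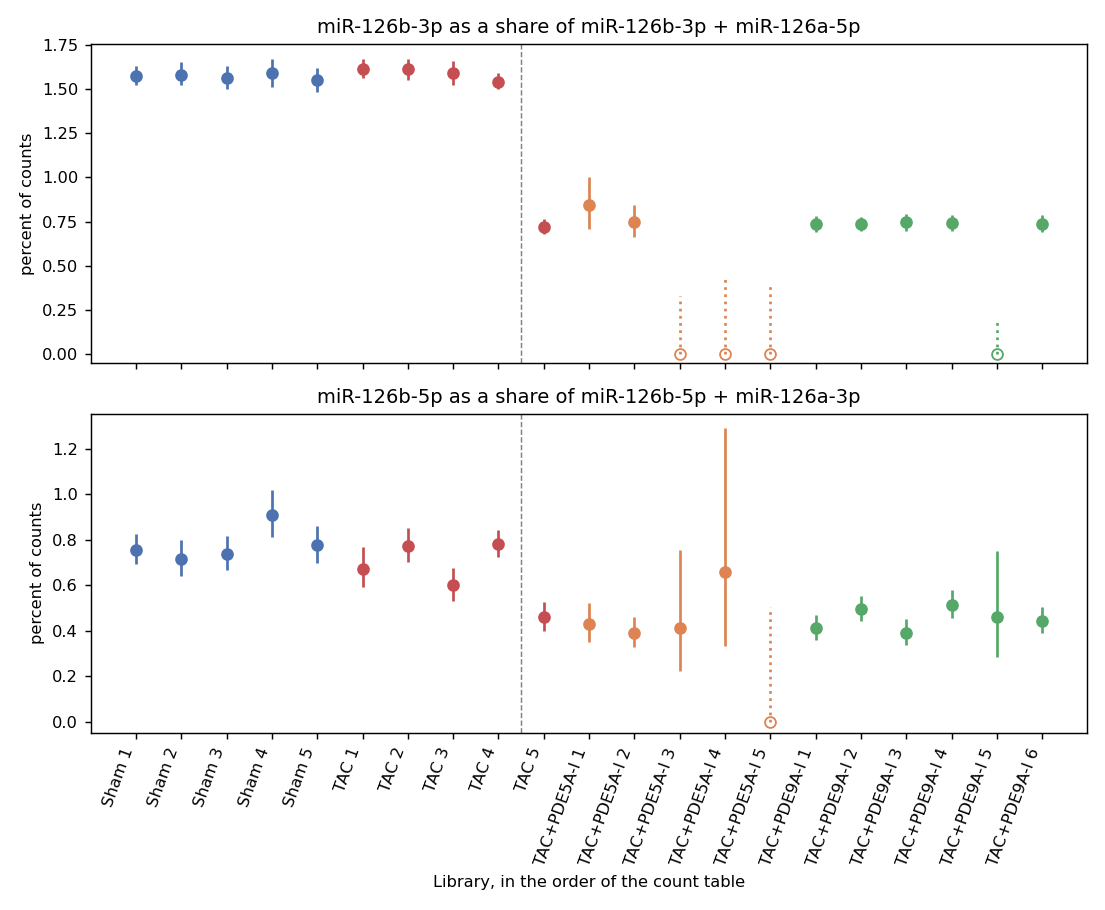
Points show, for each library in table order, the percent of counts that the minus-strand arm took of its sum with the opposite plus-strand arm. Solid lines are 95% Wilson intervals, open points are counts of 0 with a dotted line to the limit that 0 allows, and the dashed line marks the step between TAC 4 and TAC 5, from 1.54% to 0.722% in the upper panel.

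miR-126b-5p, opposite miR-126a-3p, showed a step at the same place. It took 0.599% to 0.91% of the summed counts in the first 9 libraries (mean 0.747% ± 0.0851, SD), a coefficient of variation of 11.4%, and 0.388% to 0.514% in the 8 deeper later ones (0.441% ± 0.0464). The 2 ranges did not overlap. TAC 5 was at 0.458%, below the other 4 TAC libraries. In the shallow libraries the counts were 10, 8, 0 and 16, and the intervals of the 3 with a count reached from 0.223% to 1.29%.

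The levels of the miR-126b arms therefore cannot be compared between groups apart from this step. miR-126b-3p measured 384 to 591 CPM in Sham, and 600, 350, 313, 516 and 202 CPM in TAC 1 to 5, the last being TAC 5. TAC did not pass against Sham (log2 -0.21 ± 1.01, adjusted p = 0.986). In TAC+PDE5A-I 1 and 2 it measured 38.9 and 59.9 CPM, below TAC 5. The fall of -4.25 ± 1.16 on the log2 scale against TAC passed (adjusted p = 0.00735), and it was -2.98 without the shallow libraries (adjusted p = 0.000131). Lower calls made up 24.8% of all tested microRNAs in this comparison, and 12.3% of 660 without the shallow libraries. With PF-04449613 the arm ran from 0 to 263 CPM with a median of 134 (n = 6), which did not pass against TAC (-1.47 ± 0.97, adjusted p = 0.991) or Sham (-1.68 ± 0.97, adjusted p = 0.643). Without the shallow libraries the difference from Sham was -1.42 and passed (adjusted p = 0.00455), where 1.97% of 660 microRNAs were called lower. All 5 deep TAC+PDE9A-I libraries come after the step, while all Sham libraries come before it. After the step TAC has only TAC 5, whose 202 CPM lie inside the 126 to 263 CPM of these 5 libraries. The step and the group cannot be told apart for this arm. Sildenafil and PF-04449613, whose libraries all come after the step, differed by -2.78 ± 1.07 (adjusted p = 0.0487), where 19.6% of microRNAs were called lower. The call was lost in 19 of 21 fits that left out 1 library, with values from -3.79 to -2.57. The difference passed without the 4 shallow libraries (-1.80, adjusted p = 0.00493), where 12.7% of 660 microRNAs were called lower.

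miR-126b-5p measured 57.9 to 93.3 CPM in Sham and 42.8, 55.7, 38.4, 78 and 38.4 CPM in TAC 1 to 5 (log2 -0.55 ± 0.59, adjusted p = 0.861). Under sildenafil it measured 29, 30.2, 7.25, 5.39 and 0 CPM, below every TAC library. How many other microRNAs also lay below every TAC library was not counted. The fall of miR-126b-5p against TAC was -1.76 ± 0.62 (adjusted p = 0.025), where 24.8% of microRNAs were called lower. It did not pass without the shallow libraries (-0.76, adjusted p = 0.134), and with a correction for GC content its sign turned (0.14, adjusted p = 0.836). In TAC+PDE9A-I it ran from 10 to 61.1 CPM with a median of 29.4 (n = 6, adjusted p = 0.991 against TAC).

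Other microRNAs that textbook accounts place in endothelium or vessel growth were read from a list of 31, of which 29 were tested. Against Sham, TAC had 0 of 29 called (median log2 0.08, against -0.08 over all 561, of which 2.32% were called and 88 had an unadjusted p under 0.05). With scaling by total counts 2 were higher, where 17 of all 561 microRNAs were called. Without the shallow libraries 5 were higher and 1 lower, where 6.97% of 660 microRNAs were called higher and 4.39% lower. TAC+PDE9A-I against TAC also had 0 of 29 called (median -0.01). Under sildenafil against TAC 5 were higher, 6 lower and 18 did not pass (median -0.40, against -0.31 over all microRNAs, where 21.6% were called higher and 24.8% lower). Scaling by the upper quartile gave 10 higher and 5 lower, with a median of 0.04, and correcting for GC content gave 11 higher and 6 lower of 28, with a median of 0.06. These settings also moved the median of all microRNAs, from -0.31 to 0.16 and 0.10. They called 282 of 561 and 149 of 487 microRNAs, either way. Without the shallow libraries 1 was higher and 5 were lower (median 0.08, against 0 over all microRNAs, where 6.21% of 660 were called higher and 12.3% lower).

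Among these, miR-92a-3p, a member of the miR-17 cluster known to restrain vessel growth, rose from 8838 ± 1629 CPM in TAC to 22616 ± 8208 CPM under sildenafil (n = 5 each, log2 1.36 ± 0.30, adjusted p = 0.00255). It was 0.67 higher without the shallow libraries (adjusted p = 0.0118). miR-27a-3p and miR-27b-3p, from the 2 clusters that also hold miR-23 and miR-24, fell under sildenafil, by log2 values of -1.49 ± 0.34 (adjusted p = 0.00295) and -1.53 ± 0.36 (adjusted p = 0.00307). Without the shallow libraries the falls were -0.86 and -0.85 (adjusted p = 0.00539 and 0.00748). miR-139-5p rose from 109 ± 30.8 to 198 ± 32.2 CPM (0.86 ± 0.20, adjusted p = 0.00307), and did not pass without the shallow libraries (0.67, adjusted p = 0.0534).

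Against Sham, the sildenafil group had 6 members higher and 5 lower, where 19.1% of all microRNAs were called higher and 23.5% lower. The counts were 12 higher and 4 lower with upper-quartile scaling, 9 and 4 with total counts, 8 and 3 of 28 with the GC correction, and 3 and 4 without the shallow libraries. Over all microRNAs these scalings called 275 and 247 of 561 and the GC correction 158 of 487, either way. Without the shallow libraries 5.15% of 660 were called higher and 13% lower. The pair miR-222-3p and miR-221-3p, known from endothelium and smooth muscle, was 1.40 ± 0.23 and 0.99 ± 0.20 higher (adjusted p = 0.000203 and 0.000926), and 0.99 and 0.73 higher without the shallow libraries (adjusted p = 0.00575 and 0.0119). miR-92a-3p was 1.13 ± 0.30 higher (adjusted p = 0.00602) and did not pass without the shallow libraries (0.43, adjusted p = 0.101). miR-19a-3p, also of the miR-17 cluster, was -3.96 ± 0.92 (adjusted p = 0.00274) at a level of 13.3 ± 3.74 CPM in Sham and with 4 of 5 sildenafil libraries at 0, and did not pass with the GC correction (-1.81, adjusted p = 0.056). Between the drugs 5 of 29 were higher and 6 lower under sildenafil (15.2% and 19.6% of all microRNAs). The counts were 8 and 4 with upper-quartile scaling, 4 and 4 of 28 with the GC correction, and 1 and 4 without the shallow libraries. Over all microRNAs upper-quartile scaling called 228 of 561 and the GC correction 71 of 487, either way. Without the shallow libraries 3.03% of 660 were called higher and 12.7% lower. miR-139-5p was 0.77 ± 0.19 higher (adjusted p = 0.00864). miR-19a-3p, miR-19b-3p and miR-322-5p were -3.48 ± 0.90, -2.97 ± 0.83 and -2.43 ± 0.69 (adjusted p = 0.0113, 0.0139 and 0.0141). The levels of miR-19a-3p were low, at 0.66 ± 1.47 CPM under sildenafil and 9.29 ± 5.78 CPM with PF-04449613. Those of miR-19b-3p were 11.5 ± 14.6 and 96.8 ± 53.5 CPM, with 2 sildenafil libraries at 0. Without the shallow libraries miR-139-5p did not pass (0.66, adjusted p = 0.0647) and the other 3 passed, at -2.83, -2.11 and -1.56. With the GC correction miR-19a-3p did not pass (-1.59, adjusted p = 0.123).

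Markers of other cells of the ventricle were summed in each library beside miR-126. The 4 vascular smooth muscle arms, of miR-143 and miR-145a, summed to 74000 to 119000 CPM in Sham, 70400 to 144000 in TAC and 4870 to 43400 under sildenafil, and 2 of 4 were lower and 1 higher against TAC. The 3 erythroid and platelet arms, of miR-144 and miR-451a, summed to 472 to 1450 CPM in Sham, 445 to 1210 in TAC and 23.1 to 417 under sildenafil. Against TAC 3 of 3 were lower. The 5 leukocyte arms summed to 2220 to 2670 CPM in Sham, 1400 to 2520 in TAC and 2180 to 3150 under sildenafil. Against TAC 3 were lower and 1 higher. The 5 cardiac muscle arms summed to 140000 to 178000 CPM in Sham, 80700 to 146000 in TAC and 141000 to 269000 under sildenafil. Against TAC 4 were lower and 1 higher. The 4 stromal arms, of miR-199 and miR-214, summed to 2150 to 2640 CPM in Sham, 5490 to 8300 in TAC and 1400 to 3630 under sildenafil. Against TAC 2 were lower under sildenafil. In TAC against Sham 3 of these 4 were higher, where 2.14% of all microRNAs were called higher. For sildenafil against TAC 24.8% of all microRNAs were called lower and 21.6% higher. In the 2 deeper sildenafil libraries the sums were 31900 and 43400 CPM for smooth muscle, 232 and 417 for erythroid and platelet, 2180 and 2230 for leukocyte, 141000 and 154000 for cardiac muscle and 2600 and 3630 for stromal arms. Without the shallow libraries 2 smooth muscle, 2 erythroid and platelet, 3 leukocyte, 3 cardiac muscle and 0 stromal arms were lower and none was higher, where 12.3% of 660 microRNAs were called lower and 6.21% higher. Of these 21 arms, miR-142a-3p of the leukocyte list was at 0 in 1 sildenafil library and the others were counted in every library. Their part in the miR-126 results was not tested.

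The microRNAs whose levels varied most like miR-126a were found from deviations of log2 CPM from the group means, over 21 libraries and 139 microRNAs of at least 100 CPM outside the miR-126 rows. Closest to miR-126a-3p were miR-322-3p (Pearson r = 0.974), miR-16-5p (0.968), let-7g-5p (0.966), let-7f-5p (0.965) and miR-30c-5p (0.963). Closest to miR-126a-5p were miR-1a-3p (0.986), miR-322-5p (0.983), miR-101b-3p (0.981), miR-30e-5p (0.975) and miR-145a-3p (0.971). All libraries share the spread in depth, and over the 17 deeper libraries the same values were 0.576 to 0.871 for the first 5 and 0.595 to 0.893 for the second 5. The 2 arms of miR-126a correlated with each other at r = 0.882 over 21 libraries and 0.756 over 17. Over 21 libraries the 5 named for each arm had a higher r with it than the other arm had, but they were picked as the highest of 139. Over the 17 deeper libraries miR-322-3p (0.871) and miR-30c-5p (0.763) stayed above 0.756 for the 3p arm, and miR-16-5p, let-7g-5p and let-7f-5p did not. For the 5p arm all but miR-145a-3p (0.595) stayed above it.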

How the data were processed

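MicroRNAs were counted in 21 left ventricular libraries, made from total RNA with the Illumina TruSeq small RNA kit, per the labels' protocols. The authors deposited 1 table of read counts by mature microRNA name, without normalisation. Per the submitters' processing notes, Bowtie 1.1.1, cutadapt 1.8, DESeq 1.26.0 and CASAVA 1.8.4 were used, in roles they do not state. Build, annotation and whether reads were assigned by strand: not given in the sources used here. No count equals 1. Of 25958 lines, 24055 are blank and hold no counts.

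Counts were filtered (filterByExpr), scaled (TMM) and fitted over 4 groups in edgeR 4.0.16 (R 4.3.3, robust quasi-likelihood F test, 17 residual degrees of freedom, Benjamini-Hochberg over 561 microRNAs, threshold 0.05). Log2 arm ratios (0.5 added to each count) of 161 hairpins were fitted in limma 3.58.1, and tested for miR-126a by exact permutation. Correlations used a prior count of 2. Both fits were tried on simulated data for TAC against Sham only, with an equal spread in all libraries. This does not cover the wider spread of the sildenafil group. DESeq2 1.42.0, other scalings and filters, a GC correction and leaving out libraries were tried. Total counts ran from 1205417 to 8497792 per library; the reads carry no molecular identifiers, so Wilson intervals and limits (3 counts for a count of 0) cover counting error only.

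Always named were the 4 arms. Further names were the 5 most similar microRNAs to each miR-126a arm and, per comparison, up to 4 called members of the vessel list with the smallest p. The members, lists and tests were chosen with earlier results of these data known, and the division of the libraries by the miR-126b share was seen in the data. Replicate numbers name mice with different ear tags.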

Additional observations from a re-analysis of the deposited data

Results flagged for a closer look

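In all, 5 values stood far from the rest of their group by Dixon's test at 95%, among 32 groups of libraries examined for 8 measures, of which chance marks about 1 in 20. In Sham the log2 arm ratio of miR-126a was -1.76 in Sham 2, against -1.60 to -1.56 in the other 4. In TAC it was -2.54 in TAC 1, against -1.74 to -1.58. In TAC+PDE9A-I it was 1.14 in replicate 5, a shallow library, against -1.56 to -1.34. The share of miR-126b-3p in its sum with miR-126a-5p was 0.722% in TAC 5, against 1.54% to 1.61% in the other TAC libraries, and 0 in TAC+PDE9A-I 5, against 0.735% to 0.746%.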

How the results depend on the processing

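Without the 4 shallow libraries, an alternative chosen after seeing the data, miR-126b-5p did not pass for sildenafil against TAC (-0.76). In that setting miR-126b-3p (-1.42) and miR-126b-5p (-0.93) passed for TAC+PDE9A-I against Sham, where 1.97% of 660 microRNAs were called lower. The exact permutation tests then compare 2 sildenafil libraries and could not pass after adjustment: the share of miR-126a differed by -2.03 points from TAC, -1.74 from TAC+PDE9A-I and -1.95 from Sham, and the log2 arm ratio by 2.10, 1.69 and 1.87; TAC+PDE9A-I against Sham did not pass either (0.17). With the GC correction, not run for miR-126a-5p, miR-126b-5p was 0.14 for sildenafil against TAC and -0.34 against Sham, neither passing. For sildenafil against Sham, miR-126a-3p passed with DESeq2's size factors (-1.58), DESeq2's Wald test (-1.58) and a term for ear tag range (-1.98). For sildenafil against TAC+PDE9A-I, miR-126b-3p did not pass with upper-quartile scaling (-2.44), total counts (-2.68), no filter (-2.84), the 2 groups alone (-2.87), the ear tag term (-3.25) or the GC correction (-1.57), and miR-126b-5p passed with DESeq2's Wald test (-1.37). In fits of 2 groups, miR-126a-5p (-2.84) and the limma arm ratio (1.49) did not pass between the drugs, nor miR-126b-5p for sildenafil against TAC (-1.74). Where a setting changed a call, the cause was not tested.

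Leaving out 1 library changed these calls. miR-126a-3p ranged from -1.82 to -0.96 for sildenafil against TAC and from -1.95 to -1.22 against Sham, passing in both without TAC+PDE5A-I 1 or 2, and from -1.70 to -0.91 against TAC+PDE9A-I, passing without TAC+PDE5A-I 2. Between the drugs miR-126b-3p ranged from -3.79 to -2.57, miR-126b-5p from -1.72 to -1.01 (passing without TAC+PDE5A-I 2), the arm ratio from 1.25 to 1.92 (in limma not passing without TAC+PDE5A-I 3 or 4, and by exact permutation not without TAC+PDE5A-I 1, 3 or 4 or TAC+PDE9A-I 1, 2, 3, 4 or 6) and the share from -2.54 to -1.75 points (not passing without TAC+PDE5A-I 3, 4 or 5). miR-126b-5p ranged from -2.37 to -1.56 for sildenafil against TAC, not passing without TAC 4 or TAC+PDE5A-I 3 or 4. The arm ratio of TAC against Sham ranged from -0.30 to -0.058 and passed the exact permutation test without Sham 2. The calls of miR-126a-5p held in all 21 such fits.

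The number of microRNAs called in TAC against Sham was 13, and 3 to 32 with 1 library left out, 98 in a fit of those groups, 75 without the shallow libraries, 47 with DESeq2, 26 with the GC correction, 20 without the filter and 4 with the ear tag term. For sildenafil against TAC it was 260, but 149 with the GC correction, 122 without the shallow libraries and 165 without TAC+PDE5A-I 3. Against Sham it was 239, but 158 and 120 with the first 2 of these. Between the drugs it was 195, but 0 in a fit of those groups, 115 with the ear tag term, 71 with the GC correction, 104 without the shallow libraries and 72 to 252 with 1 library left out. For TAC+PDE9A-I against Sham it was 11, but 30 with total counts, 34 with DESeq2, 4 in a fit of those groups, 1 with the ear tag term, 37 without the shallow libraries and 7 to 31 with 1 library left out.

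Replicate numbers do not pair the mice: 7 of 30 same-numbered pairs had a correlation of deviations over 0.1, and 4 of 21 libraries correlated best with their own number. With the replicate block the counts of calls were 14, 264, 0, 172, 235 and 16 in the 6 comparisons; miR-126a-3p was -1.68 for sildenafil against TAC and -1.91 against Sham, both passing, and miR-126b-3p was -3.16 between the drugs, not passing. For miR-126b-5p in TAC+PDE5A-I 5, a count of 0 allows a share of up to 0.502%, so a share at the level of the deeper later libraries was not detectable there.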

Other observations

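The step in the miR-126b share between the first 9 columns of the table and the later ones was looked for in other microRNAs, after it had been seen. Sham 1 to 5 and TAC 1 to 4 were set against TAC 5 and TAC+PDE9A-I 1 to 4 and 6, the 6 later libraries without sildenafil and above 2000000 counts. All of these 6 but TAC 5 are TAC+PDE9A-I libraries, so among them the step and the group cannot be told apart. Of 303 microRNAs with a mean of at least 10 CPM, 4 had CPM ranges that did not overlap, and all 4 were higher in the first 9. miR-126b-3p is 1 of the 4, and its share was used to draw the division, so it does not count as another microRNA with the step. miR-126b-3p measured 313 to 600 against 126 to 263 CPM, miR-486b-3p 333 to 733 against 96 to 205 CPM, miR-486a-3p 652 to 1300 against 283 to 619 CPM and miR-3074-5p 35.1 to 87 against 23.4 to 33.6 CPM. The ratios of the means were 2.57, 3.09, 2.19 and 1.82. miR-486a-3p and miR-486b-3p are near-identical and can share reads.

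Of these 4, miR-126b-3p and miR-3074-5p had a position in the RefSeq table (GRCm38.p6). Each lies opposite another hairpin: miR-126b-3p opposite Mir126a on chromosome 2, and both copies of miR-3074-5p opposite Mir24-2 on chromosome 8 and Mir24-1 on chromosome 13. Of the 264 such microRNAs with a position, 18 (6.82%) lie opposite a hairpin. The position of miR-126b-3p was known before the step was looked for, and miR-486a-3p and miR-486b-3p had no position. These are descriptions of microRNAs chosen for their values, and whether position has a part in the step was not tested.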
